A study of Homo sapiens with 6 samples.

Results

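The subject is 8 transcription factors of the epithelial-mesenchymal transition (EMT) and of the E-box, namely SNAI1, SNAI2, ZEB1, ZEB2, TWIST1, TCF3, TCF4 and TCF12, taken as the rows of the deposited table that carry these 8 gene symbols, out of 57688 rows. They were measured by RNA sequencing of WM3248, a human cell line that the labels describe as a VGP primary melanoma, grown in 2% fetal bovine serum with insulin, pituitary extract and epidermal growth factor. In the siNC group (3 libraries) the cells had received a commercial negative control siRNA, and in the siPGC1a group (3 libraries) an siRNA against PPARGC1A, the gene of the mitochondrial coactivator PGC1-alpha. Both groups were transfected at 30 nM with the same lipid reagent, and RNA was taken after 48 h. The model is 1 cell line and 1 targeting siRNA, and nothing in the labels ties the 3 libraries of a group to separate cultures. The p-values therefore cover the spread among these libraries alone, and that spread may be technical.

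All of these factors bind the E-box, a short palindrome-like DNA element written CANNTG. SNAI1 (Snail) and SNAI2 (Slug) are zinc finger repressors that sit on the CAGGTG form of the element in promoters of cell junction genes, and ZEB1 and ZEB2 bind the same letters through zinc finger clusters at either end of the protein. TWIST1 is a basic helix-loop-helix (bHLH) factor that binds as a dimer with an E protein, and TCF3, TCF4 and TCF12 are the E proteins, the broadly expressed bHLH partners. TCF3 and TCF4 here are bHLH genes and not the Wnt effectors TCF7L1 and TCF7L2, with which they share older names. In the melanocyte lineage, SNAI2 and ZEB2 are known for their part in normal differentiation together with MITF, whereas ZEB1 and TWIST1 are known from dedifferentiated and invasive melanoma cells.

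The element is shown here in promoters that these factors could read, because it is what the 8 proteins have in common. Promoter windows reach from 250 bases before to 50 bases after a start site (RefSeq, GRCh38.p14), a different build from the hg19 of the expression table. The capitals mark a CAGGTG in each window, which is a form of CANNTG. The JUP window also holds the reverse complement, CACCTG, left in lower case.
TJP1: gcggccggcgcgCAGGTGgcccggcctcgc
DSP: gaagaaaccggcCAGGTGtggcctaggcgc
JUP: ccacctgccgagCAGGTGagcgcacggagt
CRB3: ggggtcccgttaCAGGTGcgcccacagcgc
CLDN7: cgacttccggttCAGGTGagtgtcccttcg
AXL: cccctgattgtcCAGGTGgcccctgggctc
ZEB1: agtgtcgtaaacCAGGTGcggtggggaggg
The windows are TJP1 at chr15:29969120-29969149 (minus strand), DSP at chr6:7541574-7541603 (plus), JUP at chr17:41786002-41786031 (minus), CRB3 at chr19:6464112-6464141 (plus), CLDN7 at chr17:7262596-7262625 (minus), AXL at chr19:41219105-41219134 (plus) and ZEB1 at chr10:31319119-31319148 (plus). Among listed epithelial junction and keratin genes, 11 of the 15 with a promoter window held CAGGTG on either strand, against 3 of 14 listed mesenchymal genes and 24.1% of 27305 genes. That epithelial list was written from genes known as E-box targets, so its share is a description of the list. Of the 8 factors, ZEB1, ZEB2, TCF3, TCF4 and TCF12 had promoter windows (24 in all), and CAGGTG stood in 2 windows, both of ZEB1. SNAI1, SNAI2 and TWIST1 had no entry. The broader CANNTG stood in 58.3% of those 24 windows and in 68.7% of 35116 windows. A match of letters does not show that a factor binds there.

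The libraries held about 25110000 to 26360000 reads each, recovered from the FPKM values (fragments per kilobase of gene, scaled to library depth), and none was a copy of another. PPARGC1A stood at 0.932, 1.04 and 0.947 FPKM in siNC and at 0.4, 0.354 and 0.413 FPKM in siPGC1a, lower in every targeted library (limma adjusted p = 0.000234). Differences below are log2(FPKM + 1) in siPGC1a less that in siNC. This scale makes changes of low genes look smaller. The adjusted p-values come from limma over 12020 genes with a mean of at least 1 FPKM. Of those genes 48.1% passed the threshold of 0.05, 25.6% higher and 22.5% lower, and for 57.2% the 3 values of the groups did not overlap. Of 11 melanocyte lineage markers 9 passed the filter on level, with SOX10 at 217 to 257 FPKM and MITF at 5.35 to 7.34 FPKM over the 6 libraries. Their levels ranged widely, with DCT at 245 to 405 FPKM, MLANA at 0.876 to 1.95 FPKM and TYR at 1.03 to 1.63 FPKM. TYRP1 and GPR143 lay below the filter. Of 8 immune markers 7 lay below the filter, with PTPRC listed at 0 in every library, and LYZ fell from a mean of 1.73 ± 0.152 to 0.914 ± 0.189 FPKM (SD, n = 3, limma adjusted p = 0.000779). Of 9 keratinocyte markers 8 lay below it, with KRT1 and IVL at 0, and KRT10 (20.1 to 25.4 FPKM) did not pass. The part of such cells in the results was not tested.

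The 8 factors passed the level filter and split in direction. SNAI1 and TWIST1 rose, SNAI2, ZEB2 and TCF4 fell, and ZEB1, TCF3 and TCF12 did not pass. The largest differences were the falls of ZEB2 and SNAI2 to about 0.69 of the control level (ratios of mean FPKM of 0.688 and 0.693), and the largest rise was that of TWIST1, to 1.33 times. That is 5 of 8 called, against 48.1% of all tested genes, and 6 of 8 with groups that did not overlap, against 57.2%. The median difference of the 8 was -0.08, beside 0.01 over all tested genes. The share called is therefore near that of the transcriptome, and what follows describes single factors. In bulk RNA, fewer cells of a kind and less RNA per cell cannot be told apart.

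**Figure D1:**
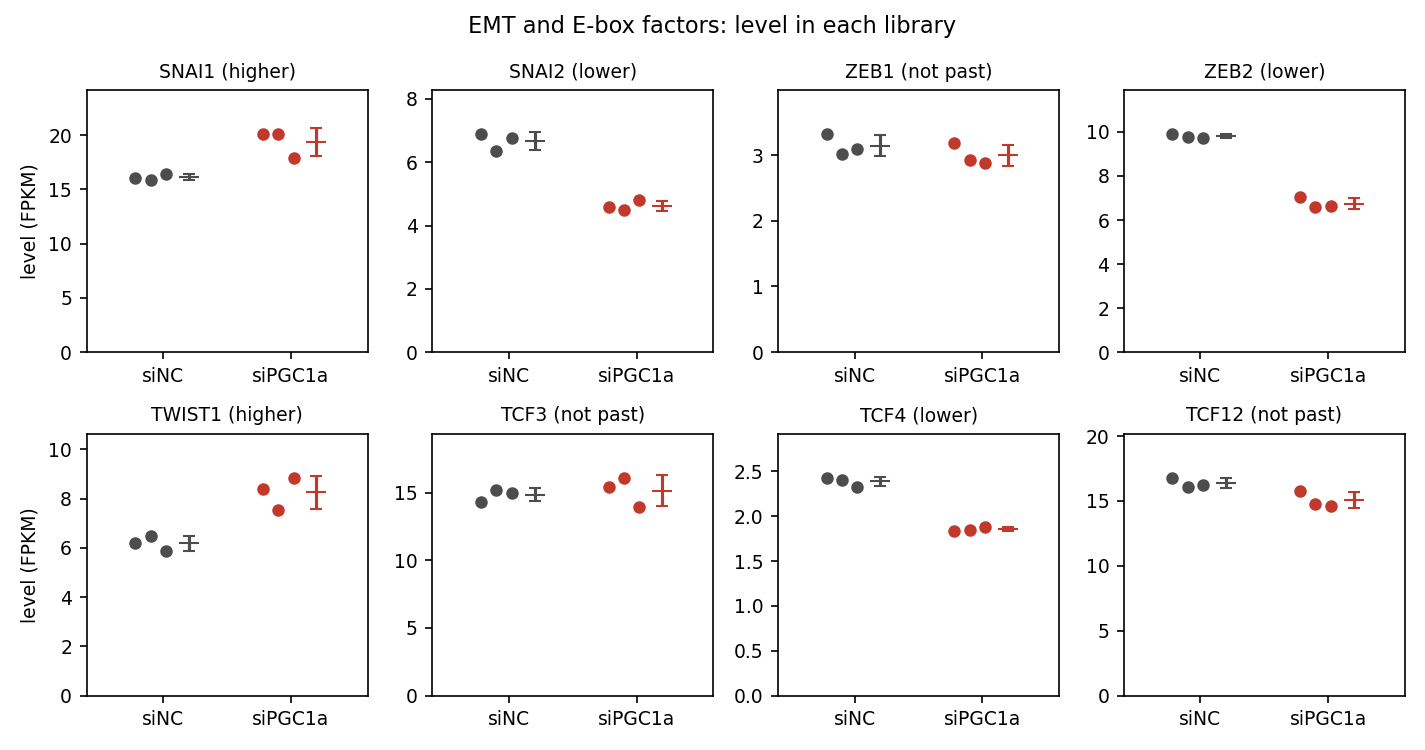
Level in FPKM (y axis, from 0) of each of the 8 factors in the 3 siNC and the 3 siPGC1a libraries (points), with the group mean and SD beside them. SNAI1 and TWIST1 sit higher and SNAI2, ZEB2 and TCF4 lower in all 3 siPGC1a libraries, while the points of ZEB1 and TCF3 overlap between groups.

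Among the zinc finger repressors, the pair of Snail family genes went opposite ways. SNAI1, which switches off CDH1 early in EMT, was at 16.1, 15.9 and 16.4 FPKM in siNC and at 20.1, 20.1 and 17.9 FPKM in siPGC1a. Every targeted library lay above every control, although the third was closer to the controls than to the other two. The mean went from 16.2 ± 0.254 to 19.4 ± 1.26 FPKM (SD, n = 3), a difference of 0.25 (SE 0.0505, limma adjusted p = 0.0031). SNAI2, which melanocytes need for their survival and migration, was at 6.89, 6.36 and 6.77 FPKM in siNC and at 4.59, 4.48 and 4.8 FPKM in siPGC1a. The groups were far apart relative to their spread, with means of 6.67 ± 0.277 and 4.62 ± 0.165 FPKM (SD, n = 3) and a difference of -0.45 (SE 0.0486, limma adjusted p = 8.48e-05). These levels rest on about 685 to 866 reads per library for SNAI1 and 381 to 616 for SNAI2.

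Of the ZEB genes, ZEB2 fell and ZEB1 did not pass. ZEB2, a repressor with a role in neural crest and melanocyte development, was at 9.9, 9.75 and 9.74 FPKM in siNC and at 7.04, 6.57 and 6.63 FPKM in siPGC1a. The control libraries had an SD of 0.0906 FPKM, and each targeted library lay well below them. Its difference of -0.48 (SE 0.0435, limma adjusted p = 2.95e-05) ranked 654th in size among the 12020 genes. ZEB1, the factor tied to loss of melanocyte identity, was at 3.32, 3.01 and 3.1 FPKM in siNC and at 3.18, 2.93 and 2.88 FPKM in siPGC1a. Its values overlapped, and the difference of -0.05 had a 95% interval of -0.18 to 0.07 (limma adjusted p = 0.451). A fall or a rise within those bounds therefore remains possible. ZEB1-AS1, a non-coding gene whose exons overlap ZEB1 on the other strand, stood at 0.477 to 0.724 FPKM over the 6 libraries, below the filter. The strand setting of the counting is not given in the sources used here, and the part of such reads in the ZEB1 value was not tested.

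The miR-200 microRNAs are the textbook brake on ZEB1 and ZEB2, and their seeds and sites are shown because the ZEB genes held more of them than the other factors. Mature sequences are from RefSeq, with the seed (bases 2 to 8) in capitals, and the first 3 share 1 seed and the last 2 another.
hsa-miR-200b-3p: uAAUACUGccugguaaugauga
hsa-miR-200c-3p: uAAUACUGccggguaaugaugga
hsa-miR-429: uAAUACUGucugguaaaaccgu
hsa-miR-200a-3p: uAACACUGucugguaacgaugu
hsa-miR-141-3p: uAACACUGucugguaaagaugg
The complement of the first seed, CAGTATT, stood at 6 places in the ZEB1 3' UTR and at 5 in that of ZEB2 (GENCODE 29, longest annotated 3' UTR, sense strand). The complement of the second, CAGTGTT, stood at 3 places in ZEB1, 4 in ZEB2, 2 in TCF4 and 1 in TCF12. A site of each gene follows, with CAGTATT in capitals.
ZEB1: cttcaaacctggCAGTATTaatacccttct
ZEB2: actacaatgcatCAGTATTatgattcctct
They lie at chr10:31528565-31528594 (plus strand) and chr2:144388979-144389008 (minus strand) of GRCh38. Among tested genes with a 3' UTR of like length (the shorter at least 80% of the longer), 29.5% held CAGTATT for ZEB1 and 47.7% for ZEB2, and 30.6% and 54.3% held CAGTGTT. SNAI2 and TCF4 held 1 CAGTATT each, and SNAI1, TWIST1, TCF3 and TCF12 held 0. The rows of MIR200A, MIR200B, MIR200C, MIR141 and MIR429 were listed at 0 in every library, and a poly(A) library does not measure mature microRNAs.

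TWIST1, the bHLH factor of mesoderm and neural crest, showed the largest rise of the 8. Its level was 6.19, 6.48 and 5.89 FPKM in siNC and 8.37, 7.52 and 8.85 FPKM in siPGC1a, with no overlap. The means were 6.19 ± 0.296 and 8.24 ± 0.672 FPKM (SD, n = 3), and the difference was 0.36 (SE 0.0606, limma adjusted p = 0.00101), on about 302 to 467 reads per library. TWISTNB, the gene named as its neighbour and encoding an RNA polymerase I subunit, rose too, from 8.71 ± 0.522 to 11.2 ± 0.397 FPKM (SD, n = 3, limma adjusted p = 0.000687). The paralog TWIST2 stood at no more than 0.027 FPKM in any library, and SNAI3, the remaining Snail gene, at 0.154 to 0.283 FPKM, both below the filter.

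Of the E proteins TCF4 fell, and TCF3 and TCF12 did not pass. TCF4, an E protein of neural and lymphoid development, was the lowest of the 8 in FPKM, a value that divides by gene length. Its merged annotated exons come to 27828 bases, against 2033 for TWIST1 and 3392 for SNAI2. By approximate reads per library, TCF4 (1291 to 1783) lay above TWIST1 (302 to 467), SNAI2, ZEB1 and SNAI1. It lay below TCF3, TCF12 and ZEB2 (4134 to 6542). TCF4 was at 2.43, 2.4 and 2.33 FPKM in siNC and at 1.84, 1.85 and 1.88 FPKM in siPGC1a. Libraries of a group differed by far less than the groups did, with a difference of -0.25 (SE 0.0511, limma adjusted p = 0.00334). TCF12 (HEB) was at 16.8, 16.1 and 16.2 FPKM in siNC and at 15.8, 14.8 and 14.6 FPKM in siPGC1a. Its groups did not overlap, but the difference of -0.11 (95% interval -0.21 to -0.01, unadjusted) missed the threshold (limma adjusted p = 0.0642). With quantile scaling the adjusted p was 0.0175 and without siPGC1a replicate 1 it was 0.0351, in a range of 0.0175 to 0.175 over limma settings. TCF3 (E2A) was at 14.3, 15.2 and 15 FPKM in siNC and at 15.4, 16.1 and 13.9 FPKM in siPGC1a, where the third library lay below the controls and the other two above them. Its difference was 0.03 (95% interval -0.10 to 0.15, limma adjusted p = 0.724), and its sign turned, to -0.02, with quantile scaling and without siPGC1a replicate 2.

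**Figure D2:**
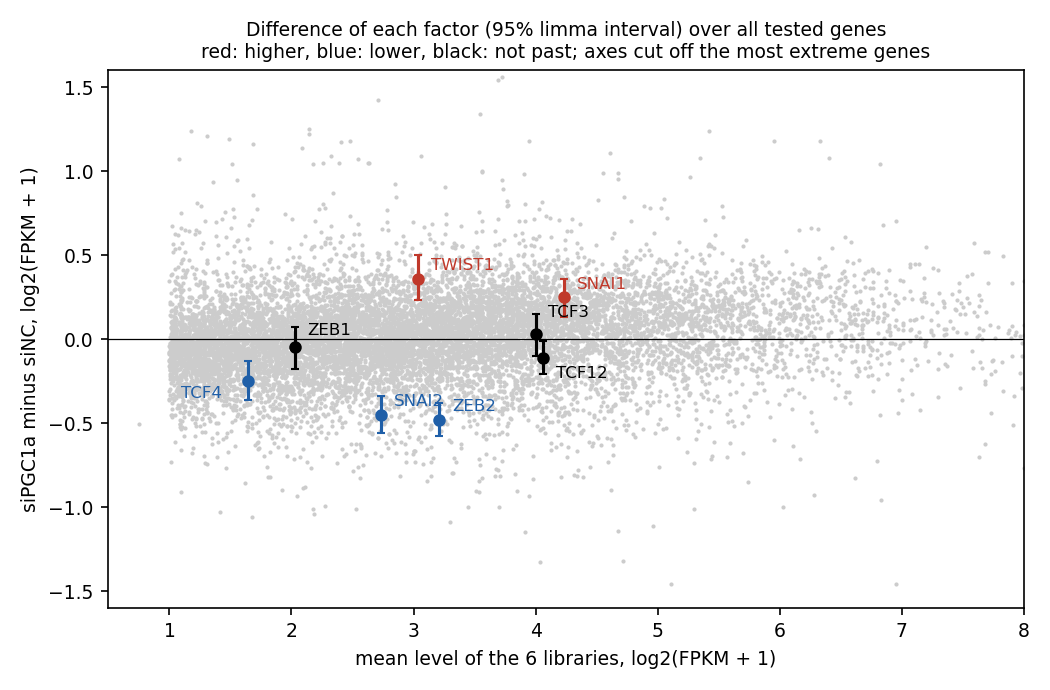
Difference between siPGC1a and siNC (y axis, log2(FPKM + 1)) against the mean level of the 6 libraries (x axis, log2(FPKM + 1)) for all tested genes (grey) and the 8 factors with 95% limma intervals. TWIST1 (0.36) and SNAI1 (0.25) lie above 0, ZEB2 (-0.48), SNAI2 (-0.45) and TCF4 (-0.25) below it, and the 8 lie inside the cloud of all genes.

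Set side by side per length, ZEB1 and TCF4 were lowest in both groups, and the 6 factors above them changed places. In siNC the order of mean FPKM was TCF12 (16.4), SNAI1 (16.2), TCF3 (14.8), ZEB2 (9.8), SNAI2 (6.67), TWIST1 (6.19), ZEB1 (3.14) and TCF4 (2.39). The values of TCF12 and SNAI1 overlapped, as did those of SNAI2 and TWIST1. In siPGC1a the order was SNAI1 (19.4), TCF3 (15.2), TCF12 (15.1), TWIST1 (8.24), ZEB2 (6.75), SNAI2 (4.62), ZEB1 (3) and TCF4 (1.86), and there TCF3 and TCF12 overlapped. In FPKM, SNAI1 thus stood above TCF3 and TCF12, and TWIST1 above ZEB2 and SNAI2, in all 3 targeted libraries. Both orders depend on the gene lengths. By approximate reads, ZEB2 was highest in siNC (6151 to 6542 per library) and TWIST1 lowest (302 to 336).

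Whether a pair of factors changed unequally was tested on their log2 ratio in each library, in 6 pairs. The ratio of TWIST1 to ZEB2 was -0.6, -0.52 and -0.64 in siNC and 0.22, 0.17 and 0.37 in siPGC1a (difference 0.84). Its sign turned in every targeted library, and that sign depends on the gene lengths behind the FPKM. The SNAI1 to SNAI2 ratio was 1.12, 1.2 and 1.17 in siNC and 1.92, 1.94 and 1.71 in siPGC1a, a difference of 0.69. ZEB1 to ZEB2 went from -1.38 ± 0.0434 to -0.96 ± 0.0189, and ZEB1 to SNAI2 from -0.89 ± 0.0284 to -0.49 ± 0.0811 (SD, n = 3). Against TCF12, the ratios of the other E proteins moved by 0.14 for TCF3 and -0.14 for TCF4. In each of the 6 pairs the groups did not overlap, beside 57.2% of single tested genes. Those of TCF3 to TCF12 nearly touched (-0.22 to -0.08 in siNC, -0.07 to 0.12 in siPGC1a). Each pair gave an exact two-sided permutation p of 0.1 (0.1 after Benjamini-Hochberg adjustment over 6 pairs). That is the smallest that 3 against 3 can give, so that none can pass 0.05. As a description, the summed FPKM of ZEB1 and TWIST1 was 0.544 to 0.589 of that of SNAI2 and ZEB2 in the siNC libraries. It was 0.946 to 1.03 in the siPGC1a libraries, and these values depend on the gene lengths too.

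**Figure D3:**
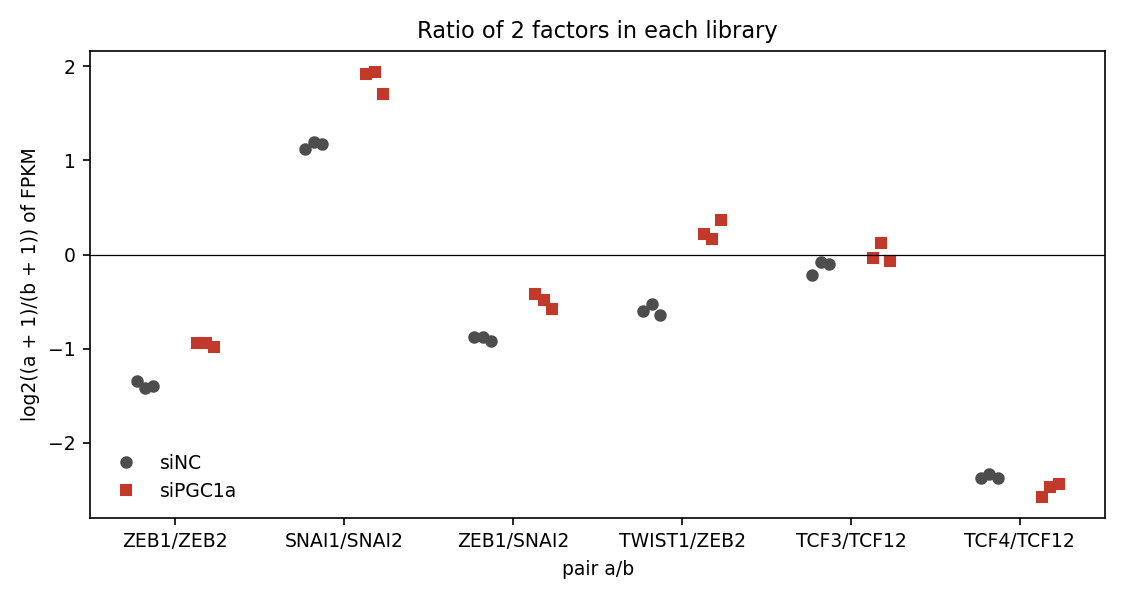
Log2 ratio of (FPKM + 1) of 6 pairs of factors (x axis) in each siNC (circles) and siPGC1a (squares) library. The TWIST1/ZEB2 ratio lies below 0 in the 3 siNC libraries (-0.64 to -0.52) and above 0 in the 3 siPGC1a libraries (0.17 to 0.37), and the 2 ratios to TCF12 move by 0.14 or less.

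ID proteins are HLH proteins that lack a DNA-binding region and hold E proteins away from the E-box. ID3 fell from 53.1, 55.3 and 56.4 FPKM in siNC to 36.8, 42.1 and 37.3 FPKM in siPGC1a (limma adjusted p = 8.75e-05). ID1 fell from 19.7, 19.5 and 19.1 to 12.8, 15.4 and 15.4 FPKM (limma adjusted p = 0.001). ID2 (1.31 to 2.14 FPKM over the 6 libraries) and ID4 (7.18 to 8.06 FPKM) did not pass. Of the 4, 2 fell and 0 rose, beside 22.5% lower and 25.6% higher among all tested genes. The share called was near the 48.1% of all tested genes. Without siPGC1a replicate 3, ID2 fell (limma adjusted p = 0.0458, in a range of 0.0458 to 0.633). Beside this the summed level of TCF3, TCF4 and TCF12 was 33.6 ± 0.106 FPKM in siNC and 32.1 ± 1.42 FPKM in siPGC1a (n = 3). In summed FPKM, the 4 ID genes came to 2.46 to 2.54 times the E proteins in siNC libraries and to 1.77 to 2.03 times in siPGC1a libraries. The groups did not overlap, as was so for 57.2% of single tested genes. Both sums and their ratio depend on the gene lengths behind the FPKM.

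Tissue-specific bHLH partners of the E proteins were mostly silent. Of 21 listed, 18 lay below the filter, 8 of them listed at 0 in every library. NEUROG2, a neurogenic factor, fell from a mean of 1.7 ± 0.266 to 1.14 ± 0.124 FPKM (SD, n = 3, limma adjusted p = 0.00782), a call lost without a filter (adjusted p = 0.06, in a range of 0.00486 to 0.06). The repressor MSC and the adaptor LDB1 did not pass.

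Other bHLH factors that read the E-box were more often higher than lower. Of 17 measured, 10 rose, 3 fell and 4 did not pass, beside 25.6% higher and 22.5% lower among all tested genes, with a median difference of 0.15 beside 0.01 over all tested genes. Without a filter on level 4 were called higher, and without siNC replicate 3 it was 6. MLX rose from a mean of 22.6 ± 0.234 to 28.7 ± 0.687 FPKM (SD, n = 3, limma adjusted p = 0.000121), and its partner MLXIP, with which it reads glucose-responsive elements, fell from a mean of 13.5 ± 0.517 to 8.63 ± 0.546 FPKM (SD, n = 3, limma adjusted p = 2.71e-05). TFE3, the lysosomal and stress regulator, rose to a ratio of 1.18 and USF1 to 1.14. MITF, the melanocyte master regulator, fell to 0.762, and BHLHE40, a repressor of the clock and of hypoxia responses, to 0.893.

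Among the other EMT and epithelial transcription factors, 14 of 20 were below the filter. SOX4, a SOX factor upstream of EZH2 in EMT, fell from a mean of 29.2 ± 0.625 to 18.5 ± 0.755 FPKM (SD, n = 3, limma adjusted p = 6.68e-06). EHF, an epithelial ETS factor, fell from a mean of 24.4 ± 1.4 to 19.2 ± 0.483 FPKM (SD, n = 3, limma adjusted p = 0.000471). FOXC2, a mesenchymal forkhead factor, rose from a mean of 0.857 ± 0.145 to 1.46 ± 0.113 FPKM (SD, n = 3, limma adjusted p = 0.00165). PRRX1 and FOXC1 did not pass. GSC, KLF8 and GRHL2 were at or near 0 in every library.

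The listed corepressors and other co-factors of SNAI and ZEB proteins, with EP300, CREBBP and KAT2B among them, went both ways. Of 17 measured, 5 rose, 2 fell and 10 did not pass, beside 25.6% higher and 22.5% lower among all tested genes, with a median difference of 0.04. HDAC1, the histone deacetylase, rose from a mean of 41.9 ± 0.471 to 48.1 ± 1.16 FPKM (SD, n = 3, limma adjusted p = 0.00203), SMARCA4, a remodelling ATPase and ZEB1 partner, to a ratio of 1.16 and the H3K27 methyltransferase EZH2 to 1.18. RCOR1 (CoREST), which joins KDM1A to SNAI1, fell from a mean of 11.8 ± 0.402 to 9.11 ± 0.657 FPKM (SD, n = 3, limma adjusted p = 0.000744), and AJUBA, a LIM adaptor of SNAI1, to a ratio of 0.848. CTBP1, the corepressor of the ZEB proteins, was at 11.2, 11.8 and 11.6 FPKM in siNC and at 12.8, 12.9 and 12.7 FPKM in siPGC1a (limma adjusted p = 0.0174). That call was lost with quantile scaling (0.0613) and without siNC replicate 1 (0.0621) or siNC replicate 3 (0.0611), in a range of adjusted p of 0.00945 to 0.0621. CTBP2 did not pass (adjusted p = 0.536).

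SNAI1 and SNAI2 proteins are short-lived, and enzymes that mark or spare them were listed as a group. Of 21 measured, 6 rose, 4 fell and 11 did not pass, with a median difference of 0.01. The share called was near the 48.1% of all tested genes. BTRC, the F-box protein that targets phosphorylated SNAI1, fell from a mean of 4.37 ± 0.0394 to 2.85 ± 0.281 FPKM (SD, n = 3, limma adjusted p = 0.000169). FBXL5, another F-box protein of SNAI1, rose to a ratio of 1.32, MDM2, a ligase of SNAI2, to 1.58 and PAK1, a kinase of SNAI1, to 1.21. USP51, a deubiquitinase of ZEB1, fell to 0.643 and the phosphatase CTDSP2 to 0.877. GSK3B, the kinase that precedes BTRC, did not pass (adjusted p = 0.473). Protein levels were not measured.

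Upstream signals that induce these factors went both ways. Of 19 measured, 5 rose, 8 fell and 6 did not pass, beside 25.6% higher and 22.5% lower among all tested genes, with a median difference of -0.06. The AP-1 subunit FOSL1, known to raise ZEB1 and TWIST1 in melanoma, rose from a mean of 25.2 ± 1.2 to 54.5 ± 2.23 FPKM (SD, n = 3, limma adjusted p = 5.91e-07). EGR1 rose 2.14-fold and the Notch ligand JAG1 1.55-fold, whereas JUN fell to a ratio of 0.7, STAT3 to 0.753 and ETS1 to 0.86.

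E-box target genes of the epithelial kind were mostly not expressed. Of 29 listed, 20 lay below the filter. CDH1, the adhesion molecule that SNAI, ZEB and TWIST1 repress, was listed at 0 in 5 libraries and at 0.006 FPKM in the other, and EPCAM at no more than 0.016 FPKM. Of the 9 measured, 4 rose, 2 fell and 3 did not pass, beside 25.6% higher and 22.5% lower among all tested genes. KRT18, a simple keratin, rose from a mean of 9.27 ± 0.323 to 13.2 ± 0.55 FPKM (SD, n = 3, limma adjusted p = 4.93e-05), CLDN4 to a ratio of 1.2 and PKP3 to 1.16, while TJP1, a tight junction scaffold whose CAGGTG is printed above, fell to 0.761 and KRT8, the partner of KRT18, to 0.813. The PKP3 call was lost without siNC replicate 3 (limma adjusted p = 0.0551, in a range of 0.00469 to 0.0551). DSP and JUP, which hold the element too, did not pass. ESRP1, an epithelial splicing factor that ZEB1 represses, was at 1.09, 1.07 and 1.06 FPKM in siNC and at 0.409, 0.538 and 0.63 FPKM in siPGC1a. Its groups were apart, but it lay below the filter and so was not tested. Like ESRP1, KLF4 and ELF3 are on the list of other EMT and epithelial factors and were not tested. KLF4 (0.648 to 0.747 FPKM in siNC, 0.933 to 1.07 in siPGC1a) and ELF3 (0.033 to 0.049 and 0.083 to 0.114 FPKM) were higher with groups apart. The epithelial targets CDH3, LLGL2 and MUC1, also below the filter and not tested, were lower in siPGC1a with groups apart. CLDN3 (0.031 to 0.089 FPKM in siNC, 0 to 0.03 in siPGC1a) and CRB3 (0.025 to 0.049 and 0 to 0.024 FPKM) were lower too. Both lay near 0, and their groups nearly touched. The remaining epithelial targets below the filter had overlapping groups, and groups were apart for 57.2% of all tested genes.

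Mesenchymal genes leaned lower. Of 24 measured, 14 fell, 3 rose and 7 did not pass, against 22.5% lower and 25.6% higher among all tested genes, with a median difference of -0.25. With a filter at a mean of 5 FPKM 9 fell. CDH2, the N-cadherin gene that replaces CDH1 in EMT, was at 32, 29.4 and 30.7 FPKM in siNC and at 20.9, 21.3 and 20.1 FPKM in siPGC1a (limma adjusted p = 1.74e-05). VIM, vimentin, fell from 548, 561 and 561 to 457, 461 and 460 FPKM (limma adjusted p = 9.64e-05), and FN1, fibronectin, from 315, 322 and 316 to 276, 270 and 250 FPKM (limma adjusted p = 0.000791). MMP2 fell to a ratio of 0.361, COL1A2 to 0.514 and COL5A2 to 0.702. AXL rose 1.17-fold. CALD1 rose 1.11-fold, a call lost with quantile scaling (adjusted p = 0.0838), without siNC replicate 2 (0.0705) and without siPGC1a replicate 1 (0.0532), in a range of 0.0166 to 0.0838. Fibroblast markers, 6 of which stand on this list too, moved with it. Of the 6 measured 5 fell (1 with a filter at 5 FPKM), and their summed level, over the 9 listed, was 51.2 to 51.6 FPKM in siNC and 41.4 to 43.7 FPKM in siPGC1a. LUM fell to a ratio of 0.75 and FAP to 0.818, while THY1 (25.7 to 29.2 FPKM) did not pass. DCN (0.118 to 0.145 FPKM in siNC, 0.041 to 0.067 in siPGC1a) and PDGFRA (0.356 to 0.419 and 0.16 to 0.187 FPKM) lay below the filter with groups apart. The part of fibroblast RNA in the result was not tested. Melanocyte lineage markers went both ways, with 2 of 9 measured higher, 4 lower and 3 not past.

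**Figure D4:**
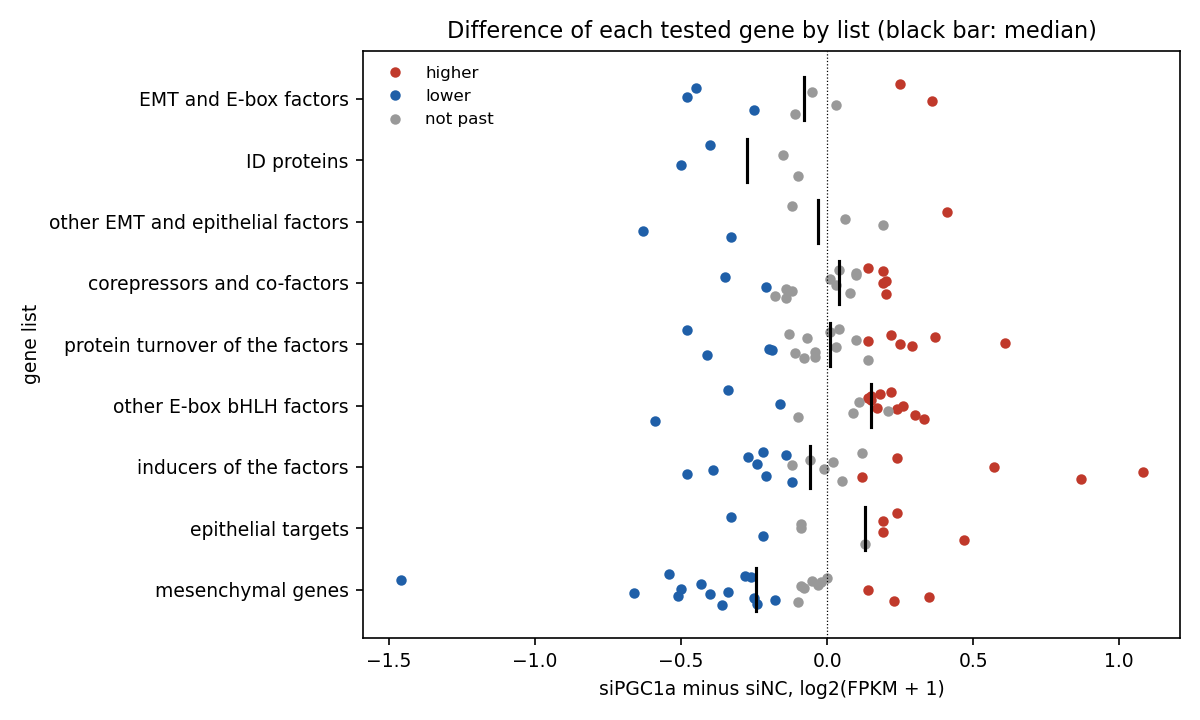
Difference between siPGC1a and siNC (x axis, log2(FPKM + 1)) of each tested gene, by gene list (y axis), coloured by limma call, with the list median as a black bar. The 8 factors spread to both sides of 0, the mesenchymal genes have their median at -0.25 and the other E-box bHLH factors at 0.15.

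The genes whose levels most resembled those of each called factor were sought by Pearson r of log2(FPKM + 1) over the 6 libraries, given as a description, since the 6 points fall into 2 groups and r mostly reflects the difference between them. For SNAI1 they were GRIPAP1, TRIM32 and GATAD2A (r = 0.9949 to 0.9957). For TWIST1 they were CHEK2, SLC25A15 and DUSP23 (r = 0.9928 to 0.9948). The patterns closest to SNAI2 were those of TXNIP, KNSTRN and GNB4 (r = 0.9988 to 0.9995), and to ZEB2 those of PDK1, ZNF528 and TRPM8 (r = 0.9994 to 0.9998). For TCF4 they were INVS, FGFBP2 and AC092506.1 (r = 0.9982 to 0.9996). An r above 0.95 was shared with 224 tested genes by SNAI1 and with 1167 by ZEB2.

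Earlier results on these libraries had shown that the 6-base word ACACCT is more frequent in 3' UTRs of lower genes, so its places in the 8 factors are given. On the sense strand of the longest annotated 3' UTR it was held by 48.6% of 2404 lower genes, 22.6% of 2932 higher genes and 33.5% of all 10782 tested genes with such a UTR. These UTRs had median lengths of 1774, 1097 and 1362 bases. A site each of ZEB2, TCF4 and TCF3 follows, in capitals. The TCF3 window also holds another of its sites, left in lower case.
ZEB2: agttctttctagACACCTtacatcaaggga
TCF4: agataaacagttACACCTtgttttcaatgt
TCF3: tccacacctcacACACCTgttgtcagcatc
They lie on the minus strand at chr2:144385163-144385192, chr18:55223653-55223682 and chr19:1611588-1611617 (GRCh38). Of the factors that fell, ZEB2 and TCF4 held 1 site each and SNAI2 held 0. Of those that rose, TWIST1 held 2 and SNAI1 held 0, and among the rest TCF3 held 3 while ZEB1 and TCF12 held 0. The UTRs of ZEB2 and TCF4 are long (5370 and 5704 bases), and 71.9% and 73.3% of tested genes with UTRs of like length held the word. The part of the word in any of these changes was not tested.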

How the data were processed

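The authors deposited 1 table of FPKM per gene and library. Per the submitters' processing notes, the tools were STAR, Picard, featureCounts and DESeq2, on hg19; neither their versions nor their roles are given. The members and gene lists were chosen with earlier results of these data known. From the deposited FPKM, genes with a mean of at least 1 over the 6 libraries, and PPARGC1A regardless, were tested on log2(FPKM + 1) by a two-sided test in limma 3.58.1 (R 4.3.3) with a variance trend and without a block for replicate number. Benjamini-Hochberg adjustment ran over all tested genes. The fit was tested on simulated data. Ratios of 2 factors had exact permutation tests. Depth was found as the total at which values of genes of at most 150 bases step by whole reads (GENCODE 29 lengths), and 85.6 to 89.2% of values up to 20 reads were whole within 0.1 read. Read numbers per factor use GENCODE 29 exon lengths, which may differ from those of the authors, so they are approximate. Intervals cover the spread between libraries.

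Libraries of a group differed by a chi-square of recovered reads of 1.95 to 5.8 per degree of freedom, and libraries of different groups by 27.1 to 36.4. Named genes of the other lists were up to 3 past the threshold in each direction by smallest adjusted p, the antisense and neighbour rows with a mean of at least 0.1 FPKM, the 3 genes of highest Pearson r for each called factor, and a set given regardless (PPARGC1A, MITF, CDH1, CDH2, VIM, FN1, ID1, ID2, ID3, CTBP1 and CTBP2). Cell type marker lists are given mainly by counts and sums. SOX10, MLANA, TYR, TYRP1, GPR143, PTPRC, KRT1, KRT10, IVL, DCN, PDGFRA, LUM, FAP, THY1, ESRP1, KLF4, ELF3, CDH3, CLDN3, CRB3, LLGL2, MUC1, SNAI3, TWIST2, ID4, EPCAM, the genes named as not past the threshold or at 0, and the genes of the printed windows were chosen after their values were seen. Alternatives were other pseudocounts (0.1 and 0.5), no filter and a filter of 5 FPKM, quantile and median scaling, a replicate block, sample weights, no variance trend and leaving out each library. Some listed genes are not reported here by name.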

Additional observations from a re-analysis of the deposited data

How the results depend on the processing

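SNAI1, SNAI2, ZEB2 and TWIST1 kept their direction and call in the 15 other settings run, and TCF4 in the 14 that could test it. The limma differences ranged from 0.21 to 0.30 for SNAI1, -0.52 to -0.43 for SNAI2, -0.53 to -0.46 for ZEB2, 0.31 to 0.42 for TWIST1 and -0.35 to -0.20 for TCF4. A mean of at least 5 FPKM left out ZEB1 and TCF4. With that filter 1607 genes were called lower in place of 2707, from 7272 tested genes in place of 12020. TCF3 reversed with quantile scaling (-0.02) and lay between -0.02 and 0.08 when single libraries were left out. TCF12 became called with quantile scaling (-0.16) and with the replicate block (-0.11, limma adjusted p = 0.0433), and lay between -0.14 and -0.09 without single libraries; the cause was not tested.

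The replicate numbers are shared by title only, and the deviations of same-numbered libraries correlated at 0.0766, 0.261 and -0.0575, so the libraries share a number and were not treated as pairs. With the block 3253 genes were called higher and 2826 lower, and each of the 6 ratios gave an exact permutation p of 0.25, the smallest that 3 pairs allow. Among 54 other named genes, 48 kept their call in every setting run for them, and of 797 values 9 lost the call, 1 gained it and 0 reversed. Each factor rests on about 302 reads or more per library. Of the list counts, other EMT and epithelial factors counted 2 higher in place of 1 in 8 settings and 0 with the filter at 5 FPKM. That filter also left 2 turnover genes, 1 epithelial target and 2 melanocyte markers lower in place of 4, 2 and 4. Without a filter 0 tissue bHLH genes were lower, 1 melanocyte marker and 1 keratinocyte marker higher. The median of all tested genes stayed between -0.006 and 0.047 over all settings.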
